A study of Mus musculus with 3 samples.

Results

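The genes described here encode the sodium pump (Na,K-ATPase) and the small FXYD proteins that regulate it. They were taken by symbol from the table of expression values of postnatal mouse hippocampus: Atp1a4, Atp1b1, Atp1b2, Atp1b3, Fxyd1, Fxyd6 and Fxyd7, which are 7 of its 39377 genes. All 7 were found. The mean of 6 of them reached 1 FPKM (fragments per kilobase of transcript, scaled to the number of mapped fragments). The study sequenced total RNA of whole hippocampus, a mix of cell types, from wild-type (WT) C57BL/6 mice at postnatal day 14. Its 3 libraries form 1 group with no treated or mutant group beside it, so the comparisons below are between genes inside the same libraries. Separate animals are not named in the labels, and the p-values then speak only of the spread between these samples, part of which may be technical. In them the variance of each gene is drawn toward that of all genes tested, so they do not rest on its own 3 values alone. The title names Slc22a17 and iron homeostasis, and neither entered these comparisons.

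The sodium pump moves sodium out of the cell and potassium in, at the cost of ATP. It consists of a catalytic alpha subunit, which binds the ions and splits ATP, and a glycosylated beta subunit, which is needed for the folding and delivery of the pump to the membrane. FXYD proteins are single-span membrane proteins that attach to the pump and alter its affinity for ions or its rate. In brain the pump restores the gradients spent by firing neurons, and in astrocytes it clears potassium and drives glutamate uptake. The other catalytic alpha genes were not analysed here, except Atp1a4.

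In the deposited values Atp1b1 was the most abundant of the 7 genes, at 782 ± 71.9 FPKM (SD, n = 3), followed by Fxyd7 at 281 ± 32.4, Fxyd6 at 195 ± 10.9, Atp1b2 at 185 ± 4.20, Fxyd1 at 85.7 ± 17.0 and Atp1b3 at 61.0 ± 2.49 FPKM. Atp1a4 was listed at 0 in every library. FPKM is a level per length of transcript, so levels of different genes can be set side by side, although GC content and mappability also enter them. The places of Fxyd7 and Fxyd1, whose transcripts are short, also depended on how length was counted, as described below. Depth was read from the steps between low FPKM values and came to about 3700000, 4130000 and 5900000 fragments in libraries 1, 2 and 3. Of 7 genes of hippocampal fields, led by Spink8, Cpne4 and Calb1, the means of 7 reached 1 FPKM. So did the means of 13337 of the 19046 genes with any value above 0, so this threshold does not check the labelled tissue.

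Promoter sequences are shown for 4 genes, to set the most abundant beta gene beside the least abundant one and Fxyd6 beside Fxyd1. Each is the 250 bases before a RefSeq start site in GRCm38.p6, written 5′ to 3′ on the gene's strand, and capitals mark 4 motifs on either strand: the TATA box in the form TATAAA and in the form TATATA, the CCAAT box, and the GC box with the letters GGGCGG. The motifs were chosen after the sequences had been seen. Of the 7 genes, 5 had an entry in the RefSeq promoter table, and Atp1b2 and Fxyd7 were not among them. Atp1b3 had a further entry, and that one and the entry of Atp1a4 are not printed.
Atp1b1 (minus strand, chr1:164458356-164458605): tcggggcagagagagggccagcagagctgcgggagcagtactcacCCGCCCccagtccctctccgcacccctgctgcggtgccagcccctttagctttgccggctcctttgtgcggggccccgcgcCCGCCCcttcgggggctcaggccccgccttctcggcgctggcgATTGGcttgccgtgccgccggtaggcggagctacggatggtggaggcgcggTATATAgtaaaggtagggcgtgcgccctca
Atp1b3 (minus strand, chr9:96364432-96364681): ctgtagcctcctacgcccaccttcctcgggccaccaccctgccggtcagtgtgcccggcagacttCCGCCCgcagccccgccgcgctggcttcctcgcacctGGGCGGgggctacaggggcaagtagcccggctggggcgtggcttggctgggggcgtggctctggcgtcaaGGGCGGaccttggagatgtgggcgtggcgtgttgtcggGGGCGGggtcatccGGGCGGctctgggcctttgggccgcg
Fxyd6 (plus strand, chr9:45369935-45370184): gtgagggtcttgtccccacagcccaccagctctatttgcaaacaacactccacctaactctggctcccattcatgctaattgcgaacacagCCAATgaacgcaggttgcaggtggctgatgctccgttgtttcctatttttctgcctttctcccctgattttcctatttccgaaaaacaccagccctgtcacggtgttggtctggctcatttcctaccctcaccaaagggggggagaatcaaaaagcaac
Fxyd1 (minus strand, chr7:31054854-31055103): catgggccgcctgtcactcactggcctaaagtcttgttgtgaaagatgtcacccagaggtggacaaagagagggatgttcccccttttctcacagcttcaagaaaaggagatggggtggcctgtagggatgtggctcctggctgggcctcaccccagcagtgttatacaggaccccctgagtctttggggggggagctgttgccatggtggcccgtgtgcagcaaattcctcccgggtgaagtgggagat

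The Atp1b1 promoter held TATATA beginning 30 bases before the start site, a match to CCAAT beginning 81 bases before it, and 2 GC boxes. The TATATA form occurred in 5.25% of the 32851 promoter windows of the same length, CCAAT in 33.8% and GGGCGG in 32.7%. Both printed beta windows were rich in CpG, with 24 CpG dinucleotides each, more than 88.0% of windows had. The printed Atp1b3 window held GGGCGG at 5 places and none of the other motifs. The further Atp1b3 entry, not printed, held none of the 4 motifs and 35 CpG, more than 97.0% of windows had. The FXYD windows held 5 CpG in Fxyd6 and 3 in Fxyd1, where the median of all windows was 6. They lie before a start site inside the RefSeq span of their gene, whereas the printed beta windows adjoin the outer end of theirs. Fxyd6 had 1 match to CCAAT and Fxyd1 none to any of the 4 motifs. TATAAA, found in 12.4% of windows, was in none of the printed windows. Matches are descriptions of these letters, and binding was not measured.

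Among catalytic subunits, Atp1a4 encodes the alpha subunit best known from the sperm flagellum. The gene (Entrez 27222, GRCm38.p6 chr1:172223508-172258424, minus strand) was listed at 0, 0 and 0 FPKM. For its annotated transcript of 3470 bases, 3 fragments would have been 0.253, 0.226 and 0.157 FPKM in libraries 1, 2 and 3. Those are the levels this depth can resolve, for counting error only, and a listed 0 can also be a failed estimate. Atp1a4 was below the 1 FPKM filter and entered no test.

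The beta subunits were present at very unequal levels, with Atp1b1 far above the other two.
Atp1b1 encodes beta1, the widely expressed beta subunit. It stood at 865, 743 and 738 FPKM in libraries 1, 2 and 3, highest in library 1, and its mean ranked 111 of the 19046 genes with any value above 0. The gene (Entrez 11931) is on the minus strand at chr1:164437099-164458355, and its transcript of 2580 bases has 6 exons. About 7395, 7122 and 10195 fragments stood behind the 3 values, for counting errors of 1.16%, 1.18% and 0.990%. Its end overlaps Nme7 on the opposite strand by 202 bases in RefSeq. Nme7 was at 11.3, 17.0 and 16.5 FPKM, and no source used here says whether counting used strand.

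Atp1b2 encodes beta2, first described as an adhesion molecule on glia. It was at 181, 186 and 189 FPKM, the tightest of the members, with a coefficient of variation of 2.26%, lower than that of all but 2.41% of the genes tested. The gene (Entrez 11932) is encoded on the minus strand at chr11:69599728-69605978, with a transcript of 2842 bases in 7 exons and no overlapping gene in RefSeq or GENCODE. Its values rested on about 1722, 1984 and 2906 fragments, for counting errors of 2.41%, 2.25% and 1.86%, close to that coefficient of variation. Atp1b3 encodes beta3, the third beta isoform. It was at 58.4, 63.4 and 61.2 FPKM, on about 373, 454 and 634 fragments. The gene (Entrez 11933, chr9:96332655-96364431, minus strand) has a transcript of 1994 bases in 7 exons. The ranges of the beta genes did not overlap in any pairing.

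Genes whose mean reached 1 FPKM were compared with Atp1b1 inside each library on the log2(FPKM + 1) scale, by limma's treat test against a null of at most 2-fold, two-sided, with Benjamini-Hochberg adjustment over all 13336 genes. Each SE of a log2 difference, here and below, is limma's moderated one. It draws the variance of each gene toward a value shared by all genes tested. Over all genes, 97.6% were lower than Atp1b1 by more than 2-fold and 0.232% were higher. Atp1b2 was lower than Atp1b1 (log2 difference -2.07, SE 0.123, limma adjusted p = 6.48e-05), with Atp1b1 at 4.23 ± 0.483 times Atp1b2. Atp1b3 was further below (difference -3.66, SE 0.127, limma adjusted p = 4.24e-07), with Atp1b1 at 12.9 ± 1.69 times Atp1b3. Both differences had the same sign in 3 of 3 libraries. Since nearly all genes lie below Atp1b1, a lower call says little about the beta genes in particular.

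With Atp1b2 as the reference, 90.4% of all genes were lower by more than 2-fold and 1.76% higher. Atp1b3 was among the lower ones (difference -1.59, SE 0.0880, limma adjusted p = 0.000642), and Atp1b2 was 3.04 ± 0.0916 times Atp1b3. Within the sum of the 3 beta genes, Atp1b1 made up 76.0% ± 2.06 (SD, n = 3), Atp1b2 18.1% ± 1.49 and Atp1b3 5.96% ± 0.585. The Atp1b1 share was 78.3%, 74.9% and 74.7% in libraries 1, 2 and 3. These are shares of transcript level in a mixed tissue, where fewer cells of a type and less RNA per cell cannot be told apart.

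**Figure D1:**
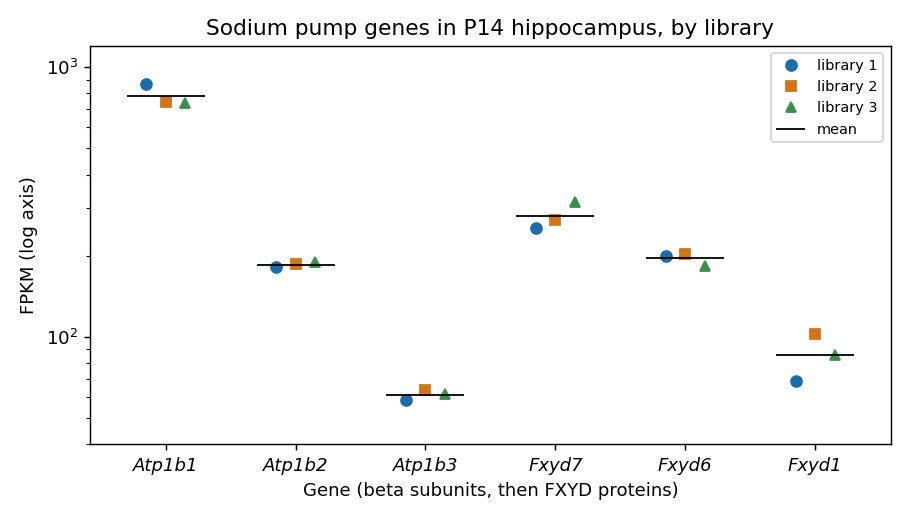
Deposited FPKM (log axis) of the 3 beta subunit genes and the 3 FXYD genes in libraries 1, 2 and 3, with the mean as a line; Atp1a4, listed at 0, is not drawn. Atp1b1 lies at 738 FPKM or more in every library, above all other members, and the points of Fxyd1 are spread the widest for their level, from 68.8 to 103 FPKM.

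The FXYD genes were led by Fxyd7 in the deposited values. Fxyd7 encodes a regulator found mainly in brain. It was at 254, 272 and 317 FPKM, highest in library 3, with a mean that ranked 371 of 19046. The gene (Entrez 57780) is at minus-strand position chr7:31042515-31051454, and its longest coding transcript has only 693 bases, in 6 exons. About 397, 487 and 847 fragments stood behind its values, for counting errors of 5.02%, 4.53% and 3.44%. Fxyd6 encodes phosphohippolin, a regulator named for its expression in hippocampus. It was at 200, 204 and 183 FPKM, lowest in library 3, on about 1122, 1286 and 1673 fragments. The gene (Entrez 59095, chr9:45369470-45396159, plus strand) has a transcript of 1789 bases in 8 exons.

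Fxyd1 encodes phospholemman, a target of protein kinases A and C that is best known from heart and skeletal muscle. It was at 68.8, 103 and 85.6 FPKM, highest in library 2 and lowest in library 1, a range of 1.49-fold. The gene (Entrez 56188) is at minus-strand position chr7:31051678-31055873, and its longest coding transcript has 620 bases in 8 exons. Only about 89, 153 and 192 fragments stood behind its values, for counting errors of 10.6%, 8.09% and 7.22%. Its coefficient of variation of 19.8% was the highest of the members and above that of 67.3% of the genes tested, where the median was 13.8%. Fxyd1 and Fxyd7 are neighbours on the same strand, 223 bases apart. RefSeq places the long noncoding RNA Gm38984 across both, so reads from it could enter either value where counting assigned them there. Gm38984 was not analysed here.

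Against Fxyd7, 93.5% of all genes were lower by more than 2-fold and 1.11% higher. Fxyd1 was among the lower ones (difference -1.71, SE 0.170, limma adjusted p = 0.000530), while the difference of Fxyd6 did not pass (Fxyd7 minus Fxyd6 0.52, SE 0.128, adjusted p = 1.00 with Fxyd6 as the reference). Fxyd7 was 1.45 ± 0.249 times Fxyd6 and higher in 3 of 3 libraries in the deposited values, without being shown to differ by more than 2-fold. At full transcript length, described below, Fxyd7 was the higher one in 1 of 3 libraries. In the deposited values that pair was called against a null of no difference (limma adjusted p = 0.00824). That null was not tested at full length. Against Fxyd6, 90.7% of all genes were lower and 1.63% higher, and Fxyd1 was not called (difference -1.20, SE 0.140, limma adjusted p = 0.114), although Fxyd6 was 2.34 ± 0.492 times Fxyd1. Of the summed FXYD level, Fxyd7 made up 49.9% ± 3.71, Fxyd6 34.9% ± 3.49 and Fxyd1 15.2% ± 2.34 (SD, n = 3).

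Across the families, Atp1b1 exceeded each FXYD gene. Fxyd7 was lower (log2 difference -1.48, SE 0.144, limma adjusted p = 0.00817), Fxyd6 likewise (difference -1.99, SE 0.119, limma adjusted p = 7.83e-05) and Fxyd1 was the lowest of them (difference -3.19, SE 0.174, limma adjusted p = 7.79e-06). In the deposited values the summed beta level was 1.84 ± 0.239 times the summed FXYD level. That ratio was not computed at full transcript length, described below, where Fxyd7 and Fxyd1 kept 63.1% and 58.7% of their levels and each beta gene more. Fxyd6 and Atp1b2 were the neighbours in the order that could not be separated. Their ranges overlapped, Fxyd6 was higher in 2 of 3 libraries, and neither the 2-fold null (difference 0.07, SE 0.0949, limma adjusted p = 1) nor a null of no difference (limma adjusted p = 0.470) was passed. Fxyd7 stood above Atp1b2 by less than 2-fold (ratio 1.51 ± 0.142, limma adjusted p = 1).

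Atp1b2 was 2.22 ± 0.409 times Fxyd1, which was not called (difference -1.12, SE 0.130, limma adjusted p = 0.209). Fxyd1 in turn was 1.40 ± 0.222 times Atp1b3. That pair was not called either (difference 0.47, SE 0.124, limma adjusted p = 1), in a fit with Atp1b3 as the reference that was added after the order of levels was known. In that fit 72.6% of all genes were lower than Atp1b3 and 5.17% higher. Atp1b3 was below Fxyd6 (difference -1.66, SE 0.103, limma adjusted p = 0.000525) and below Fxyd7 (difference -2.18, SE 0.162, limma adjusted p = 2.91e-06). In all, 9 of 15 pairs of members differed by more than 2-fold and 6 did not pass. Not passing refers to the 2-fold null. Against a null of no difference, Fxyd1 was called in the deposited values against Atp1b2, Fxyd6 and Atp1b3 (limma adjusted p = 0.000360, 0.000226 and 0.0122). So was Fxyd7 against Atp1b2 (limma adjusted p = 0.00196). That null was not tested at full transcript length.

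**Figure D2:**
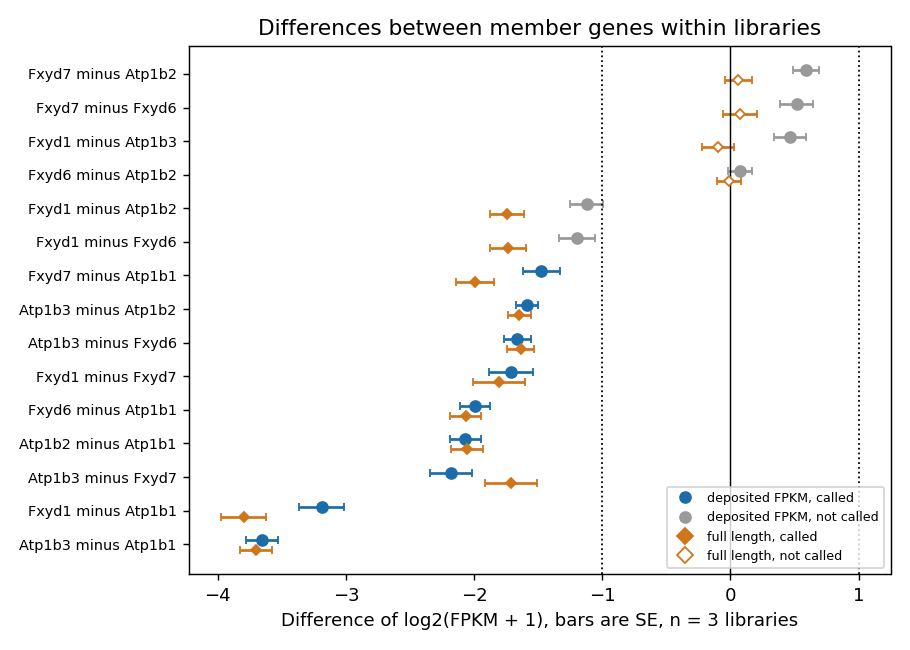
Differences of log2(FPKM + 1) for the 15 pairs of member genes, as deposited (circles) and rescaled to the full transcript length (diamonds). Bars are limma's moderated SE (n = 3 libraries), not the spread of each pair alone, and dotted lines mark 2-fold. The 5 differences from Atp1b1 lie at -1.48 or below, and the differences of Fxyd1 from Atp1b2 and from Fxyd6 move from -1.12 and -1.20 to -1.75 and -1.73 with the rescaling.

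The levels of the short Fxyd7 and Fxyd1 transcripts relative to the longer ones depended on how length enters FPKM. Depth and a number of bases taken off each transcript's length were chosen together. The steps between low values came out as whole fragments most often with 270, 260 and 240 bases off in libraries 1, 2 and 3. These settings were chosen on transcripts of at least 800 bases. In transcripts of 400 to under 700 bases, which were not used to choose them, 79.4%, 89.1% and 81.9% of the values worth 4 fragments or fewer came within 0.15 of a whole number. With the full length in place at the same depth, the shares were 28.7%, 31.9% and 26.2%, where even spread would give 30%. Depth was not chosen again for the full length, so those low shares cannot show how well full length could do. The deposited values were taken to divide by a shortened length, which raises short transcripts relative to a count per full length.

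Rescaled to full length, Fxyd7 stood at 177 ± 26.8 FPKM, which was 63.1% of its deposited level, and Fxyd1 at 50.3 ± 10.6, which was 58.7%. The longer members kept more of theirs: Atp1b1 90.0%, Atp1b2 91.0%, Atp1b3 87.1% and Fxyd6 85.6%. The order of the FXYD means stayed the same. On that scale Fxyd7, Atp1b2 at 169 ± 4.77 and Fxyd6 at 167 ± 8.01 FPKM lay together, with Fxyd7 minus Fxyd6 at 0.07 (SE 0.133) and Fxyd7 minus Atp1b2 at 0.06 (SE 0.108). Fxyd1 lay under Atp1b3, at 53.2 ± 2.38 FPKM, without a call (difference -0.10, SE 0.127, limma adjusted p = 1). Its differences from Atp1b2 (-1.75, SE 0.132) and from Fxyd6 (-1.73, SE 0.143) were now called (limma adjusted p = 0.000906 and 0.000988). The place of Atp1b1 and the beta shares, with Atp1b1 at 76.0% ± 2.05, were little moved. The transcript lengths are those of GENCODE M21, and no source used here gives the gene models of the authors.

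**Figure D3:**
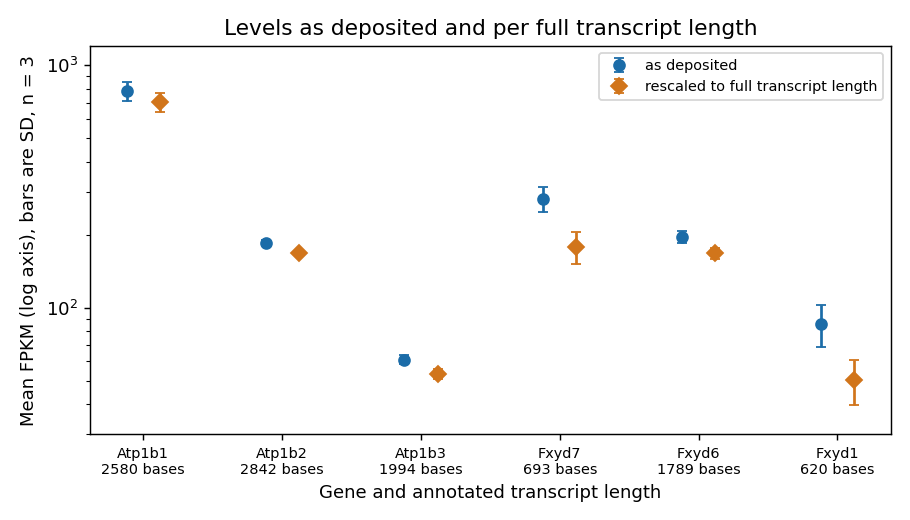
Mean level with SD (n = 3, log axis) of each gene as deposited and rescaled to full transcript length, with the annotated length under each name. Fxyd7 and Fxyd1, of 693 and 620 bases, drop to 63.1% and 58.7% of their deposited levels, and the others to between 85.6% and 91.0%.

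The members did not shift together between libraries. Atp1b1 was 0.15 log2 units above its own mean in library 1, where Fxyd1 was at -0.29 and Fxyd7 at -0.14. In library 2 Fxyd1 was 0.28 above its mean, and in library 3 Fxyd7 was 0.18 above. The median of the genes tested lay within 0.011 of the mean in each library. Fxyd1 is also expressed in choroid plexus, the epithelium next to the hippocampus, and 9 markers of that tissue moved between libraries. Their summed level was 404, 1093 and 1320 FPKM in libraries 1, 2 and 3, a range of 3.27-fold carried mainly by Ttr (392, 1071 and 1296 FPKM), and 7 of 9 were lowest in library 1, as Fxyd1 was. Lowest there were also 6 of 8 astrocyte, 5 of 8 oligodendrocyte lineage, 5 of 7 vascular, 4 of 6 microglial and 4 of 6 meningeal markers. The counts were 1 of 9 for neuronal, 1 of 4 for ependymal, 2 of 4 for red cell and 3 of 7 for hippocampal field genes. The share over all genes was not computed. Of the 9 choroid plexus markers, 8 had a mean that reached 1 FPKM, and Kcnj13 was at 0 in library 1 alone. Fxyd1 was highest in library 2, while the choroid plexus sum was highest in library 3. The part of choroid plexus RNA in the Fxyd1 values was not tested.

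Other marker lists moved less, and no marker was at 0 in all libraries. Sums for 8 astrocyte markers, led by Aldoc, Gfap and Gja1, were 1122, 1337 and 1285 FPKM, lowest in library 1 and highest in library 2, as Fxyd1 was, although 2 of the 8 markers were lowest in library 2. The sums of the microglial, meningeal and hippocampal field genes were also lowest in library 1 and highest in library 2. Oligodendrocyte lineage, vascular and ependymal sums were lowest in library 1 and highest in library 3, as the choroid plexus sum was. The neuronal sum was lowest in library 2 and the red cell sum in library 3. Sums for 9 neuronal markers, led by Camk2a, Snap25 and Slc17a7, ranged from 2760 to 2855. The 6 meningeal markers, led by Igf2, Dcn and Col1a2, ranged from 106 to 131 FPKM. The 8 oligodendrocyte lineage markers (Mbp, Olig1, Cnp highest) ranged from 939 to 1092, 7 vascular markers (Rgs5, Cldn5, Slco1a4) from 140 to 155, 6 microglial markers (C1qa, C1qb, P2ry12) from 157 to 184, 4 ependymal markers (Rarres2, Ccdc153, Tmem212) from 38.2 to 45.2 and 4 red cell genes (Hbb-bs, Hba-a2, Hba-a1) from 885 to 1060 FPKM. The 7 hippocampal field genes ranged from 191 to 213 FPKM. How far any of these cells contributed to a member's value was not tested.

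**Figure D4:**
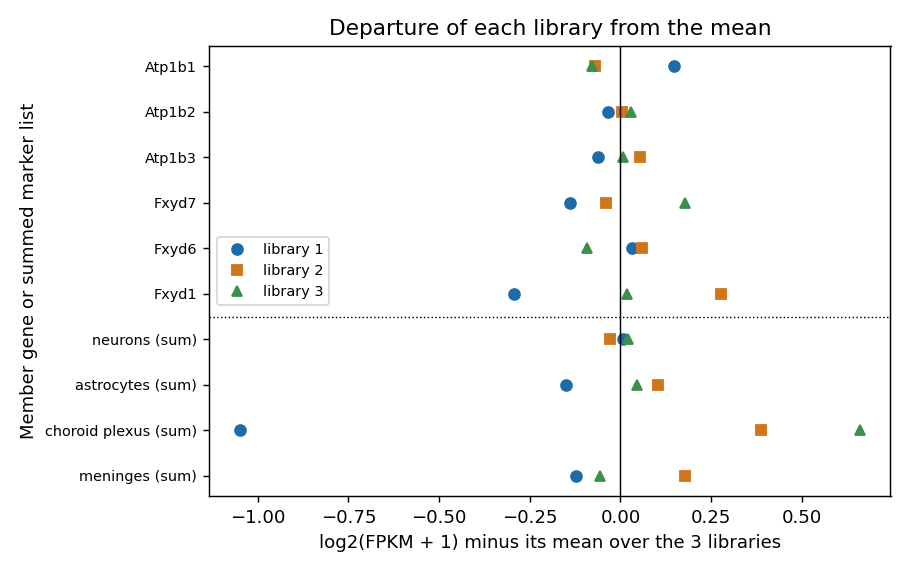
Departure of each library from the mean over 3 libraries, in log2(FPKM + 1), for the 6 members above 0 and for the summed markers of 4 cell or tissue types. Fxyd1 ranges from -0.29 in library 1 to 0.28 in library 2, and the choroid plexus sum from -1.05 in library 1 to 0.66 in library 3.

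The 7 relatives of the pump reported here were at low levels or at 0. Among the genes of the gastric and colonic proton pumps, Atp4a was at 2.58, 0.68 and 1.63 FPKM and Atp12a at 0.07, 0 and 0. Atp4b, and the gene of the muscle protein Atp1b4, were listed at 0 in all 3 libraries. Among other FXYD genes, Fxyd5, whose product is called dysadherin, was at 8.37 ± 2.18 FPKM, Fxyd3 was listed at 0, 2.67 and 1.74, and Fxyd4 at 0 throughout. The 3 of these 7 relatives that entered the test were all lower than Atp1b1, Atp1b2, Fxyd6 and Fxyd7 by more than 2-fold, where 90.4% to 97.6% of all genes were lower than those references.

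The Nkain genes encode membrane proteins that bind the beta1 subunit. Nkain4 was the highest at 69.9, 69.4 and 63.4 FPKM, beside 58.4, 63.4 and 61.2 for Atp1b3. Nkain1 and Nkain2 were alike at 23.2 ± 3.81 and 23.2 ± 3.15 FPKM, and Nkain3 was at 3.31 ± 1.17. All 4 were lower than Atp1b1 by more than 2-fold, as were 97.6% of all genes, with Nkain4 nearest (difference -3.51, SE 0.117, limma adjusted p = 3.64e-07).

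Calcium pumps and exchangers, which use ATP or the sodium gradient to remove calcium, were led by Atp2b1 at 100 ± 14.7, Atp2a2 at 87.8 ± 6.51 and the exchanger gene Slc8a2 at 67.6 ± 7.20 FPKM. Of the 13 genes in that list 12 were tested, and 12 were lower than Atp1b1, beside 97.6% of all genes. Against Atp1b2, 10 were lower, beside 90.4% of all genes, and Atp2b1 and Atp2a2 were not called. Genes of pump partners and regulators were led by Mlc1, an astrocyte membrane protein linked to beta1, at 132 ± 10.8 FPKM, the membrane anchor gene Ank2 at 89.5 ± 8.85 and the protein kinase A subunit gene Prkaca at 81.1 ± 10.2. All 12 of that list were lower than Atp1b1, and 9 were lower than Atp1b2, again beside 97.6% and 90.4% of all genes. Mlc1, Ank2 and Prkaca were not called lower than Atp1b2 by more than 2-fold. Prkaca came nearest to that call (difference -1.19, SE 0.110, limma adjusted p = 0.0774). It gained the call with trend and robust moderation (limma adjusted p = 0.0353) and at full transcript length (0.0483).

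Of the list genes reported here, the astrocytic glutamate transporter genes Slc1a2 and Slc1a3 came nearest to Atp1b1, at 401 ± 69.0 and 324 ± 13.2 FPKM. They belong to the list of carriers and channels that use or serve the gradients. The next highest of the 9 genes in that list, the GABA transporter gene Slc6a11, was far lower at 55.3 ± 2.56 FPKM. Of the 9 genes in that list, 8 were lower than Atp1b1, beside 97.6% of all genes, and Slc1a2 was not called (difference -0.97, SE 0.169, limma adjusted p = 0.566). The call of Slc1a3 (difference -1.27, SE 0.128, limma adjusted p = 0.0413) was lost without replicate 1, 2 or 3 (adjusted p = 0.116, 0.125 and 0.0626) and at full transcript length (0.0751). No gene of these lists was called higher than Atp1b1, Atp1b2, Fxyd6 or Fxyd7 by more than 2-fold, where 0.232%, 1.76%, 1.63% and 1.11% of all genes were. The median of the list means was 16.8 FPKM for calcium transport, 35.4 for partners and 39.1 for gradient users, where the median over all genes tested was 10.5 FPKM.

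The genes nearest to each member over the 3 libraries were found by the distance between their log2(FPKM + 1) values, among protein-coding genes whose mean reached 1 FPKM. With 3 libraries this describes level more than pattern. Nearest to Atp1b1 were Snap25, which encodes a protein of synaptic vesicle fusion, at a distance of 0.12 and Ywhah at 0.13. Snap25 also had its highest value in library 1, at 841 FPKM against 792 and 709. Nearest to Atp1b2 was the GABA-B receptor gene Gabbr1 (0.05), and nearest to Atp1b3 were Mtfp1 and Smarcd3 (0.06 each). For Fxyd6 they were Sap18b (0.05) and Hprt (0.06), and for Fxyd7 the elongation factor gene Eef1a2 (0.09) and Ndufb5 (0.11). For Fxyd1 they were Med28 and Bok (0.09 each), which were also lowest in library 1 and highest in library 2. Choosing genes by distance over these same values favours such a shared order, for Snap25 as well.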

How the data were processed

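Total RNA of hippocampus was sequenced as paired reads (Illumina NovaSeq), as the labels' protocols state. The authors deposited FPKM per gene, 1 column per library, per the file headers; Bowtie2 and GRCm38 (mm10) are named in the submitters' processing notes, and no source used here gives the counting tool, annotation or strand setting. Members, lists and tests were chosen with earlier results of these data known. FPKM were used as deposited. Genes with a mean of at least 1 FPKM were compared with Atp1b1, Atp1b2, Fxyd6 and Fxyd7 as log2(FPKM + 1) with limma 3.58.1 in R 4.3.3 (treat, 2-fold null, Benjamini-Hochberg over all genes, calls at adjusted p under 0.05); the script was tested on simulated data. Ratios are means of per-library ratios. With 3 libraries an exact sign-flip test has a smallest p of 0.25, and none was run. Depth came from single-transcript GENCODE M21 genes, chosen so that values of at most 4 fragments were whole within 0.15 (93.3%, 92.6% and 91.2%); it was added after the data were seen. Its figures cover counting error only, because without molecular identifiers reads need not be separate molecules. Genes were named by rule: all members, all pump relatives and Nkain genes, the 3 highest of each other list, and the 2 nearest genes to each member. Of the genes in the lists, 3 are not reported here, nor is 1 of the nearest genes. Python 3.11.15 was used.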

Additional observations from a re-analysis of the deposited data

How the results depend on the processing

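Of 150 alternative values for the 15 pairs of members (another pseudocount, filter, null or moderation, each replicate left out, full transcript length, only transcripts of at least 400 bases), 141 kept direction and call. Part of that was fixed in advance. The filter, null, moderation and 400-base settings leave the difference itself unchanged, so only a call could move. A call at 2-fold also could not be lost with a null of no difference. Full length reversed Fxyd6 minus Atp1b2 (-0.012) and Fxyd1 minus Atp1b3 (-0.10), neither of them called, and added calls for Fxyd1 against Atp1b2 and Fxyd6; the other changes were calls gained with a null of no difference. With that null, the genes higher than Atp1b1, Atp1b2, Fxyd6 and Fxyd7 numbered 80, 455, 422 and 296, against 31, 235, 218 and 148 with the 2-fold null. With a mean of at least 5 FPKM, which tests fewer genes, 7934 were lower than Atp1b2 and 7983 lower than Fxyd6, against 12050 and 12098. Full length, which also drops transcripts under 400 bases, left 13 genes higher than Atp1b1, against 24 with that limit alone; both were chosen after seeing the data. Full length gave Fxyd6 42.6% of the FXYD sum. Without single replicates, the counts of genes higher than the references stayed within 1.5 times. Against Fxyd7, the lower call of Atp2b1 was lost without replicate 2 (limma adjusted p = 0.106) and at full length (0.774), where those of Prkaca (0.0848), Atp2a2 (0.365) and Ank2 (0.531) were lost too. No paired analysis was possible because there was no other group to pair with by replicate; genes were compared within libraries throughout. Depth limits Fxyd1 to counting errors of 7.22% to 10.6%.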
